A study of Mus musculus with 8 samples.

Results

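Ionotropic glutamate receptor subunits are the genes described here: the AMPA receptor genes Gria1, Gria2, Gria3 and Gria4, the kainate receptor genes Grik2, Grik3 and Grik5, and the NMDA receptor genes Grin1, Grin2b and Grin3a. They were taken by gene symbol, with every probe set annotated to that symbol alone. This gave 22 of 45037 probe sets, for 9 of the 10 genes. Grin1, the subunit that every NMDA receptor holds, was not analysed here. Expression was read on 8 arrays of oligodendrocyte precursor cultures, 4 kept at 31.5 °C and 4 kept at 37 °C for the last 48 hr. The cells of all 8 were taken from the cerebral hemispheres of 15-day ICR embryos, spent 5 days in 10% serum and then moved to serum-free medium, and no agent or allele set the groups apart. The cells were prepared from mixed primary cultures, so the arrays average over whatever cells the cultures held. The submitters mention 3 mice per group beside 4 replicates per temperature, and do not say which replicates were cultured apart. Errors and p-values therefore cover the spread among these 8 arrays, which may be technical.

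Ionotropic glutamate receptors are cation channels of several subunits that open when glutamate binds. AMPA receptors carry fast excitatory currents, and their GluA2 subunit, encoded by Gria2, keeps calcium from passing once its transcript has been edited. Kainate receptors are slower relatives, and NMDA receptors pass calcium when glutamate and a co-agonist bind and the membrane is depolarised. Oligodendrocyte precursors carry AMPA and kainate receptors and receive synaptic input from neurons, and overactivation of these receptors injures cells of the oligodendrocyte lineage.

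A signal here is the deposited MAS5 signal after each array was scaled to a common trimmed mean, in arbitrary units, and is comparable between arrays for 1 probe set but not between probe sets. Values are given as mean ± SD (n = 4 arrays at each temperature), and a log2 change is the 31.5 °C level minus the 37 °C level. The trimmed mean of the deposited signal ran from 189 to 238 over the 31.5 °C arrays and from 132 to 248 over the 37 °C arrays, and scaling factors ran from 0.848 to 1.6, the highest for replicate 4 at 37 °C. A change was called at an adjusted p under 0.05 in limma, over the 22519 probe sets tested. Their mean log2 signal, with low values raised to a floor, was at least that of a signal of 36.3. Of these, 13.2% were called, 6.76% lower and 6.46% higher at 31.5 °C. Arrays with the same replicate number deviated together (r of 0.384 to 0.580 across probe sets), so the differences within the 4 numbered pairs and the fit with the replicate number as a block are given where they change a call. With that block, 26.3% of the probe sets were called, 13.9% lower.

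In the unpaired fit, transcripts of 3 of the 4 AMPA receptor genes were called lower in the cold cultures. Gria3 was called as well once the replicate block was used (1420563_at, adjusted p = 0.0451). The 4 called probe sets of Gria1, Gria2 and Gria4 fell to between 49.1% and 65.7% of their 37 °C level. Not called in the unpaired fit were 1435239_at of Gria1 (57.7%) and 1453098_at of Gria2 (86.2%). The same held for 1421351_at (69.6%) and 1440891_at (88.9%) of Gria4. Of the 10 AMPA probe sets, 4 were called lower, with 0 higher even by an unadjusted p of 0.05. Against this, 6.76% of all probe sets were called lower. None of the 8 tested kainate and NMDA probe sets was called in the unpaired fit. By an unadjusted p of 0.05, 2 of them were lower and 0 higher, with no share over all probe sets given here. With the replicate block, 7 AMPA, 1 kainate and 1 NMDA probe set were called lower, against 13.9% of all. The arrays hold RNA of whole cultures, in which fewer cells of a type and less RNA per cell cannot be told apart.

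Whether a subunit was above background was judged against 95 probe sets of olfactory, vomeronasal and bitter taste receptors, genes that brain cultures are not known for. The 95th percentile of these lay between 16.3 and 23 on the 31.5 °C arrays and between 15.4 and 29.2 on the 37 °C arrays. By this measure, 19 of the 22 probe sets were above background on at least 3 of the 4 arrays at 31.5 °C, and 19 at 37 °C. These held all 10 AMPA probe sets at both temperatures. The exceptions were 1 of the 2 Grik3 probe sets and 2 at each temperature of the 4 Grin2b probe sets, as given with those genes. The filter for testing, set over both temperatures together, passed 18 of the 22, with at least 1 for each of the 9 genes.

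Gria1 encodes GluA1, a subunit that is added to synapses during plasticity. Its probe set 1448972_at had signals of 151, 189, 154 and 180 in replicates 1 to 4 at 31.5 °C, and of 297, 347, 217 and 326 in replicates 1 to 4 at 37 °C. Every cold array lay below every warm array, and replicate 3 at 37 °C was the lowest of its group. The mean was 168 ± 18.6 at 31.5 °C and 297 ± 57.2 at 37 °C, a log2 change of -0.80 ± 0.16 (SE, adjusted p = 0.0130). The other probe set, 1435239_at, had 212, 216, 129 and 237 at 31.5 °C against 380, 392, 236 and 359 at 37 °C. Here the groups overlapped, since replicate 3 at 37 °C (236) lay just under replicate 4 at 31.5 °C (237), yet the cold array was the lower of each pair. Its log2 change was almost the same, -0.79 ± 0.23, and just missed the threshold (adjusted p = 0.0503, and 0.00290 with the block). Without replicate 3 at 37 °C it was -0.96 and passed (adjusted p = 0.0251).

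Gria2 showed the largest called fall among the receptor probe sets, at 1434146_at. This probe set had signals of 266, 318, 282 and 366 at 31.5 °C, against 592, 673, 567 and 662 at 37 °C. The groups lay far apart, with the highest cold array well under the lowest warm array. The log2 change was -1.03 ± 0.12 (adjusted p = 0.00180), or 49.1% of the 37 °C level, with -1.15, -1.08, -1.01 and -0.86 in pairs 1 to 4. Probe set 1421970_a_at averaged 804 ± 141 at 31.5 °C and 1218 ± 158 at 37 °C, again without overlap. Its log2 change was -0.61 ± 0.15 (adjusted p = 0.0297, and 0.00435 with the block). That call ended without replicate 1 (adjusted p = 0.0762) or 3 (0.0824) at 31.5 °C, without replicate 1 (0.0516), 2 (0.0791) or 4 (0.0703) at 37 °C, without the filter (0.0786) and with median scaling (0.0555).

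The probe sets of Gria2 did not move by the same amount. Probe set 1453098_at had 226, 283, 212 and 305 at 31.5 °C and 312, 269, 292 and 306 at 37 °C, so the groups overlapped. Its log2 change of -0.21 ± 0.13 did not pass (adjusted p = 0.319, and 0.230 with the block). Within an array, the log2 difference of 1434146_at minus 1453098_at ran from 0.17 to 0.41 at 31.5 °C and from 0.93 to 1.32 at 37 °C. For all 3 pairings of the Gria2 probe sets the groups did not overlap in such a difference. The only other pairing without overlap, among 12 pairings of probe sets of the same gene, was in Gria4. These pairings were looked at after the values were seen and carry no test. The share of such pairings without overlap over all genes of the arrays is not given here. The target sequences of the probe sets were not used here, so which transcript forms each reads was not examined.

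Gria4 encodes GluA4, the subunit of the fastest AMPA receptors. Probe set 1435722_at had 163, 178, 150 and 194 at 31.5 °C, against 285, 331, 241 and 364 at 37 °C. The groups did not overlap and the log2 change was -0.82 ± 0.14 (adjusted p = 0.00860), with -0.80, -0.90, -0.68 and -0.90 in pairs 1 to 4. Probe set 1421351_at, at 32.5 ± 3.22 and 47.2 ± 9.13, gave -0.52 ± 0.15, which did not pass (adjusted p = 0.0562, and 0.0482 with the block). Without replicate 2 at 37 °C, the lowest warm array at 34.5, it was -0.67 and passed (adjusted p = 0.0170). The third, 1440891_at, was at 86.7 ± 19.6 at 31.5 °C and 96.6 ± 14.2 at 37 °C, with -0.17 ± 0.17 (adjusted p = 0.550) and the cold array higher in pair 4. The log2 difference of 1435722_at minus 1440891_at was 0.75 to 1.15 at 31.5 °C and 1.5 to 1.79 at 37 °C.

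Gria3, the X-linked AMPA subunit gene, had no call in the unpaired fit. Its probe set 1420563_at read 44.5, 81.2, 67.5 and 73.9 at 31.5 °C, against 96.4, 94.8, 85.5 and 106 at 37 °C. These groups did not overlap, but replicate 1 at 31.5 °C stood well below the other cold arrays. The log2 change was -0.55 ± 0.18 (adjusted p = 0.0766, and 0.0451 with the block). Probe set 1434728_at was at 160 ± 36.3 and 201 ± 24.7 (-0.35 ± 0.17, adjusted p = 0.217), with overlapping groups and a cold value below the warm value in each pair. Its difference was -0.95 in pair 4 and between -0.27 and -0.05 in pairs 1 to 3, so most of the mean came from replicate 4.

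**Figure D1:**
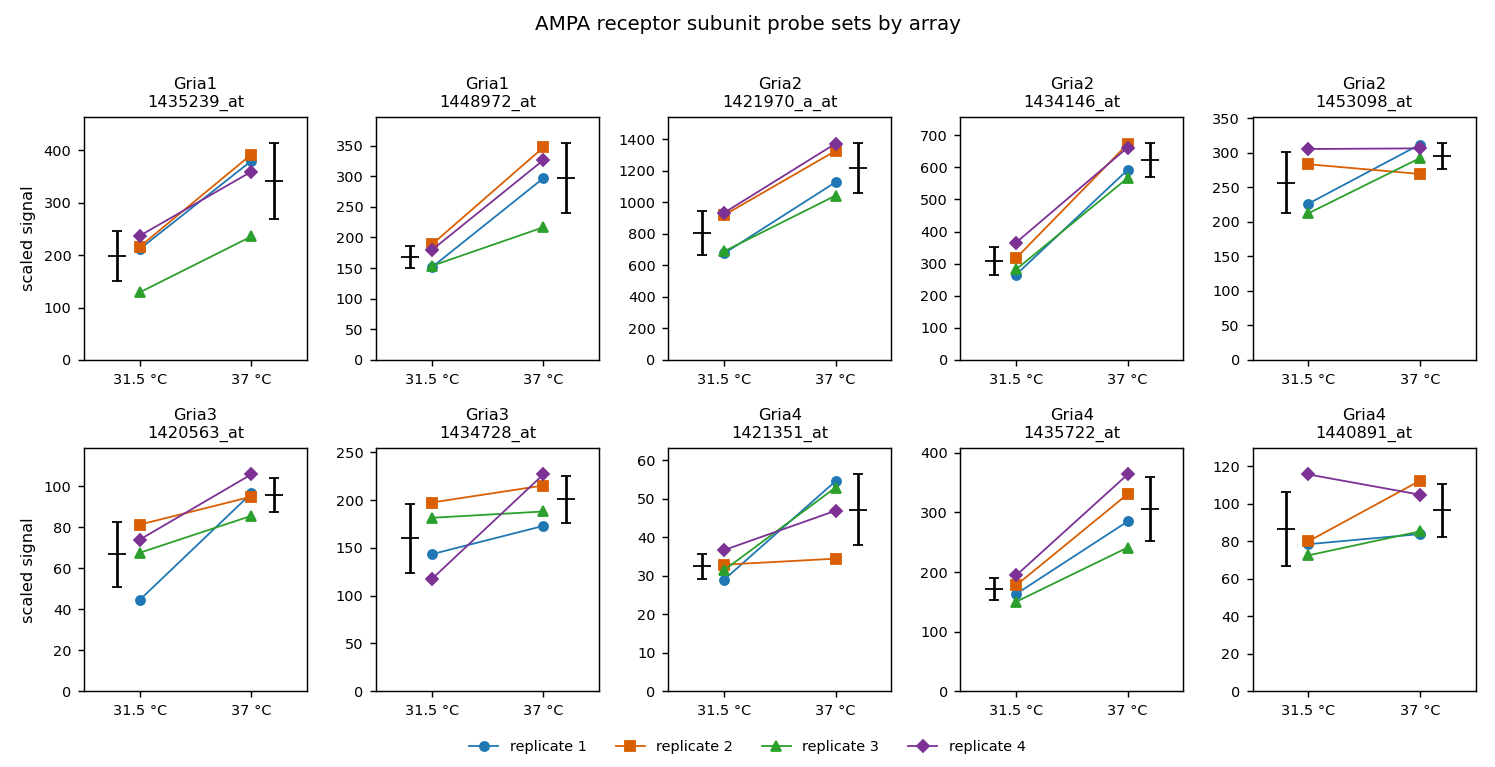
Scaled signal (arbitrary units, linear axes from 0) of the 10 AMPA receptor probe sets on each array, with 31.5 °C on the left and 37 °C on the right of each panel. Lines join arrays of the same replicate number, and the black marks beside the points are the mean and SD of 4 arrays. Of the 10 probe sets, 8 are lower in every pair, all but 1453098_at of Gria2 and 1440891_at of Gria4. In 5 of the 10, all cold arrays lie below all warm arrays.

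Over the AMPA receptor as a whole, all 10 probe sets had a negative change, from -1.03 to -0.17, with a median of -0.58. The median over all probe sets tested was -0.0046, and 50.7% of those were negative. In 8 of the 10 the cold array was the lower of every pair, where 24.4% of all probe sets tested had this. In 5 of the 10 all cold arrays lay below all warm arrays, where 10.2% of all probe sets tested had this. The 10 probe sets read 4 genes and are not independent of each other.

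Promoter sequences from RefSeq (GRCm38.p6) were looked up for the members and matched 6 of the 10 genes. Shown are the 250 bases before the transcript start of Gria2 and Gria4, which both had called probe sets, and of Grik5, a kainate subunit described further on that stayed level. Capitals mark a CCAAT box (CCAAT), an E-box (CANNTG) or a GC box (GGGCGG) on either strand, and no 2 of the marked matches overlap.
Gria2, chr3:80802836-80803085 (- strand): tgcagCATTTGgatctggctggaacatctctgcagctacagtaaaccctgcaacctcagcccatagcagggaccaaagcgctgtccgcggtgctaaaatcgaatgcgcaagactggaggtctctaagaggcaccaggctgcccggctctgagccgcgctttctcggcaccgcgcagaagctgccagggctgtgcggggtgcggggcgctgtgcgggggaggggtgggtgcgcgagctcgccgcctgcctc
Gria4, chr9:4796235-4796484 (- strand): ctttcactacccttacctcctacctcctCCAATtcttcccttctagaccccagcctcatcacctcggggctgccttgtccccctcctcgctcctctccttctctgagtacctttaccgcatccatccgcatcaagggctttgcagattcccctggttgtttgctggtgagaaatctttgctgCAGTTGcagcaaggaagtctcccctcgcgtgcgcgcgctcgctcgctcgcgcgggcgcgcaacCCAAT
Grik5, chr7:25072370-25072619 (- strand): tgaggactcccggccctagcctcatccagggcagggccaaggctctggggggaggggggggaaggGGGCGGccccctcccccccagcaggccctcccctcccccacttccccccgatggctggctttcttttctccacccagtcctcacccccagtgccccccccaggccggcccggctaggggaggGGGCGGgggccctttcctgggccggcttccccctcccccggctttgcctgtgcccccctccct
The Gria2 window held 1 E-box and the Gria4 window held 1 E-box and 2 CCAAT boxes, and neither held a GC box. The Grik5 window held 2 GC boxes and no E-box or CCAAT box. Its share of G and C was 75.2%, beside 64.8% for Gria2 and 58.8% for Gria4. The windows of Grik2 and Grik3, which had no call in the unpaired fit, held 0 and 6 GC boxes at 62.8% and 82.0% G and C. With the replicate block, Grik2 was called lower (1457683_at, adjusted p = 0.0181). Whether either feature goes with the changes was not tested. Among 32851 windows of the same length, 66.2% held an E-box, 33.8% a CCAAT box and 32.7% a GC box. These matches describe the letters alone. A TATA box (TATAAA, in 12.4% of windows), a CRE (TGACGTCA, 1.55%), an AP-1 motif (TGANTCA, 6.75%), the core of the antioxidant response element (TGACNNNGC, 10.2%) and the core of the NRF1 motif (0.782%) were searched on both strands and matched in none of the 3.

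Kainate receptor subunits had 0 calls in the unpaired fit. By an unadjusted p of 0.05, 1 of the 4 tested probe sets was lower and 0 higher, with no share over all probe sets given here. Grik2 encodes GluK2, a subunit that forms channels by itself. Its probe set 1457683_at had 57.3, 61.5, 61.4 and 75.2 at 31.5 °C, against 77, 76.0, 89.9 and 90.2 at 37 °C. The cold arrays all lay below the warm ones, with replicate 4 at 31.5 °C just under replicate 2 at 37 °C. The log2 change was -0.39 ± 0.11 (adjusted p = 0.0548, and 0.0181 with the block). Probe set 1425790_a_at was at 49.0 ± 11.7 and 69.2 ± 15.7 (-0.50 ± 0.23, adjusted p = 0.178), and its pairs ranged from -1.02 in pair 4 to 0.05 in pair 3.

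Grik3 encodes GluK3, a further channel-forming subunit of low glutamate affinity. Its probe set 1440177_at read 309, 287, 397 and 460 at 31.5 °C, against 343, 488, 425 and 452 at 37 °C. The groups overlapped widely, and only pair 2 differed by more than 0.2 (-0.77), for a log2 change of -0.25 ± 0.17 (adjusted p = 0.385). The second probe set of Grik3, 1427709_at, was above background on no array, with signals of at most 14.6 at 31.5 °C and at most 3.68 at 37 °C, and was not tested.

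Grik5 encodes GluK5, a subunit of high glutamate affinity that reaches the surface only with partners such as GluK2. Its probe set 1418784_at read 648, 579, 560 and 631 at 31.5 °C, against 542, 645, 607 and 666 at 37 °C. The ranges lay over each other, with the cold array higher in pair 1 and lower in pairs 2 to 4. The log2 change was -0.02 ± 0.10 (adjusted p = 0.906), with a 95% interval from -0.24 to 0.20. The auxiliary subunit genes of kainate receptors were similarly placed: Neto2 was at 713 ± 29.7 and 716 ± 24.0 (-0.0076 ± 0.08, adjusted p = 0.964) and Neto1 at 277 ± 31.4 and 299 ± 55.1 (adjusted p = 0.720).

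NMDA receptor subunits were dim or did not pass. Grin2b encodes GluN2B, the glutamate-binding subunit of early development. Of its 4 probe sets, 1457003_at had a mean high enough to be tested, and read 31.0, 36.8, 24.1 and 51.6 at 31.5 °C, against 58.1, 49.0, 43.3 and 60.7 at 37 °C. The cold array was the lower of each pair, but replicate 4 at 31.5 °C lay within the warm range. The log2 change was -0.60 ± 0.22 (adjusted p = 0.110, and 0.0230 with the block), and without that array it was -0.79 and passed (adjusted p = 0.0286).

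The other Grin2b probe sets lay near background. Probe set 1442370_at was above it on 2 arrays at 31.5 °C (mean 20.1 ± 7.53) and on 3 at 37 °C (35.3 ± 11.3). Probe set 1431700_at was above it on 3 arrays at 31.5 °C (20.6 ± 3.42) and on 1 at 37 °C (17.0 ± 7.60), and 1422223_at on 0 and 2 (11.5 ± 8.32 and 19.2 ± 12.2). These 3 were not tested, and their mean differences did not share a sign.

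Grin3a encodes GluN3A, a glycine-binding subunit that lowers calcium entry and is present in oligodendrocytes. Its probe set 1438866_at read 103, 124, 115 and 146 at 31.5 °C, against 86.8, 121, 124 and 149 at 37 °C. The groups coincided, with 2 pairs higher and 2 lower and a log2 change of 0.03 ± 0.17 (adjusted p = 0.921, 95% interval from -0.36 to 0.43). Probe set 1436575_at was at 89.6 ± 15.2 and 104 ± 17.9 (-0.22 ± 0.16, adjusted p = 0.403), with the cold array the lower of each pair. Probe set 1458378_at was at 80.9 ± 13.1 and 89.9 ± 29.3 (-0.12 ± 0.22, adjusted p = 0.771), where replicate 4 at 37 °C alone reached 132. All 3 were above background on all 8 arrays.

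**Figure D2:**
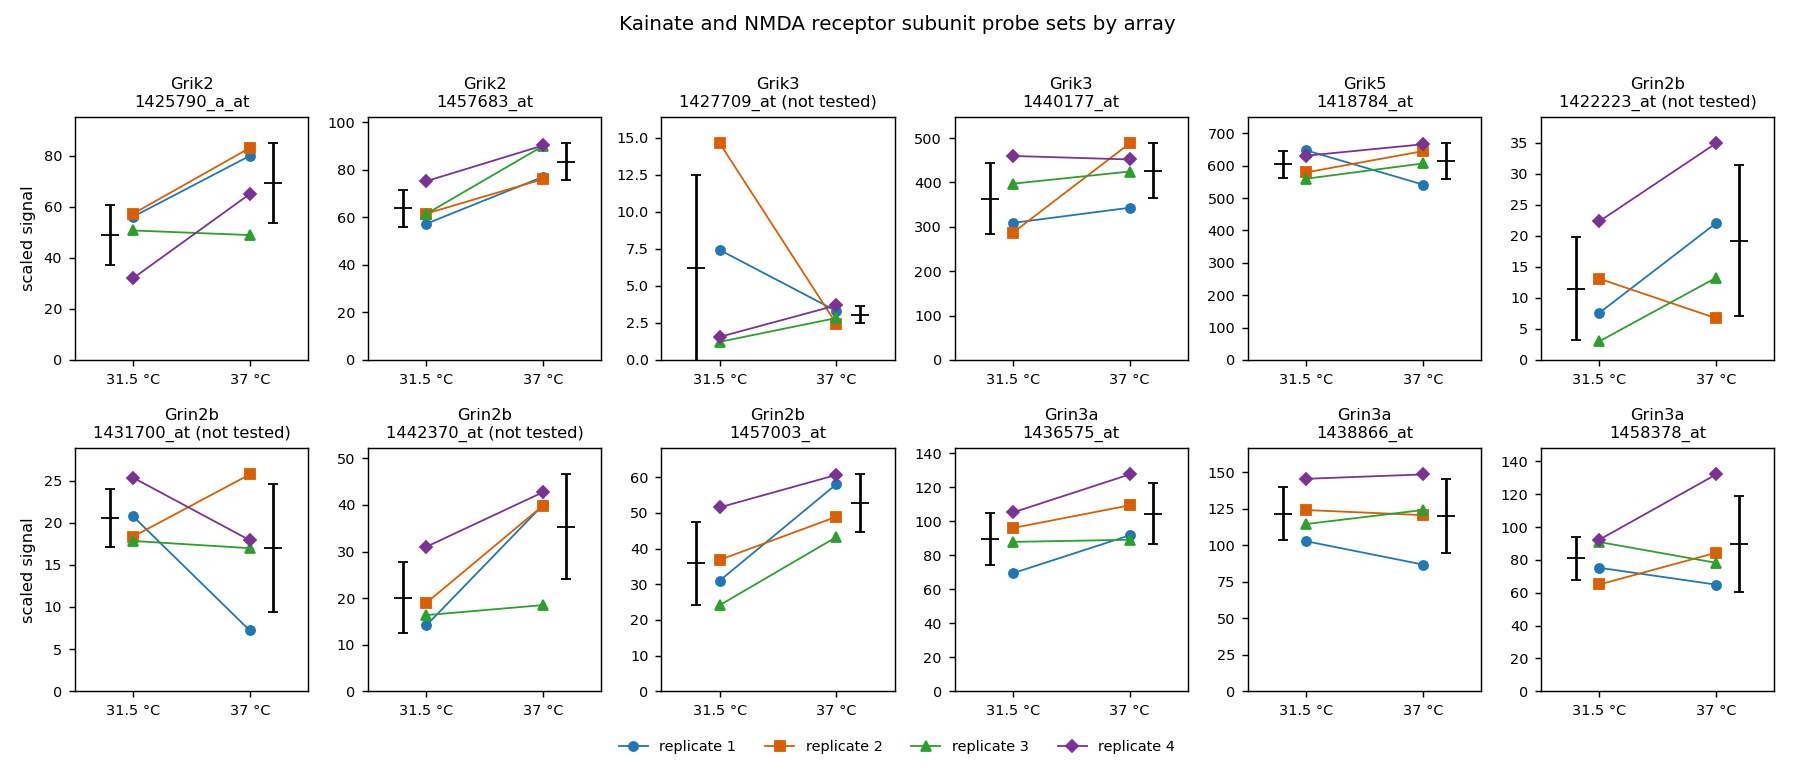
Scaled signal (arbitrary units, linear axes from 0) of the 12 kainate and NMDA receptor probe sets on each array, with 31.5 °C left of 37 °C, lines joining arrays of the same replicate number, and the mean and SD of 4 arrays in black (an SD that would reach below 0 is cut at the axis). Grik5 and Grin3a 1438866_at lie level between temperatures. Probe sets 1457683_at of Grik2, 1457003_at and 1442370_at of Grin2b and 1436575_at of Grin3a are lower in each pair. The 4 panels marked as not tested have signals of at most 42.8.

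**Figure D3:**
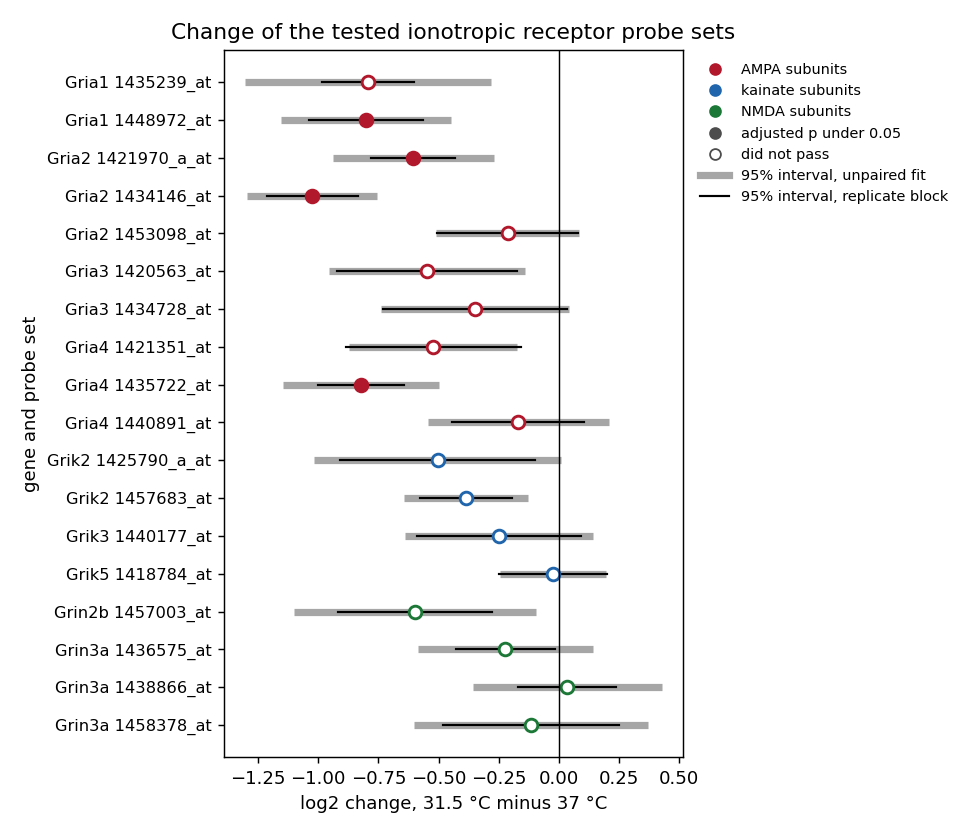
Log2 change (31.5 °C minus 37 °C) of the 18 tested receptor probe sets, with 95% intervals of the unpaired fit (grey) and of the fit with the replicate block (black). Filled points passed an adjusted p of 0.05 in the unpaired fit: 1448972_at of Gria1, 1421970_a_at and 1434146_at of Gria2 and 1435722_at of Gria4.

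The plot of the changes by probe set shows how much the pairing matters for this family. The block narrowed the interval of every called AMPA probe set, for example from an SE of 0.16 to 0.10 for 1448972_at. It added calls for 1435239_at of Gria1, 1420563_at of Gria3, 1421351_at of Gria4, 1457683_at of Grik2 and 1457003_at of Grin2b. Over all 18 tested receptor probe sets, which come from 9 genes, 17 had a negative change and the median was -0.45. In pairs 1 to 4 that median was -0.49, -0.39, -0.40 and -0.44.

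Whether subunits of the same receptor moved unequally was examined with the within-array log2 difference of 2 subunits, which does not depend on how an array was scaled. With each gene at its probe set of highest mean, 5 such differences were compared between temperatures by exact two-sided permutation tests, for which 0.0286 is the smallest p with 4 against 4 arrays. Gria2 minus Gria4 was 2.22 ± 0.13 at 31.5 °C and 2.0 ± 0.08 at 37 °C, higher in 4 of 4 pairs by 0.22 on average (exact p = 0.0571, adjusted over the 5 tests 0.143). With the mean of all tested probe sets of each gene its sign turned, to -0.11. Gria2 minus Gria1 differed by 0.19, higher in 4 of 4 pairs (exact p = 0.400), and Gria2 minus Gria3 by -0.26, higher in 1 of 4 pairs (exact p = 0.343), and neither passed (adjusted p = 0.400 for both). Grik5 minus Grik2 was 3.25 ± 0.18 at 31.5 °C and 2.89 ± 0.14 at 37 °C, higher in 4 of 4 pairs by 0.36 (exact p = 0.0571, adjusted 0.143). Grik5 minus Grik3 differed by 0.22 (exact p = 0.343, adjusted 0.400). None of the 5 passed, in tests whose adjusted p could pass only if several reached the smallest value. An exact sign-flip test of the 4 pairs gave p = 0.125, the smallest that 4 pairs allow, for each of the 3 differences that were higher in every pair, so the paired design could not reach 0.05.

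The remaining ionotropic subunit genes were mostly at background. Results are given for 7 of them. By their probe sets of highest mean, Grik1, Grin2a, Grin2c and Grin3b were above background on fewer than 3 arrays at either temperature. Grin2d, a slow NMDA subunit of development, read 22.1 ± 0.627 at 31.5 °C and 39.9 ± 9.23 at 37 °C without overlap, and its other probe set, 1421393_at, 23.9 ± 7.62 and 16.7 ± 11.4 with overlap, both too low to be tested. Grik4, which encodes the high-affinity partner GluK4, was at 56.1 ± 10.5 and 51.2 ± 14.6 (adjusted p = 0.675). Grid1, an orphan relative, had 2 probe sets of opposite sign: 1421569_at at 51.6 ± 10.8 and 36.7 ± 11.5 (0.53 ± 0.23, adjusted p = 0.172) and 1441499_at at 31.2 and 48.0 on average, which fell (-0.62 ± 0.14, adjusted p = 0.0234, up to 0.0988).

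Auxiliary subunits, which set the gating and the surface number of AMPA receptors, fell in part. With each gene at its probe set of highest mean, 2 of 13 tested were lower and 0 higher, where 6.83% of all genes tested were called lower and 6.68% higher. By an unadjusted p of 0.05, 5 were lower and 0 higher, for which no share over all genes is given here. With the block 6 were lower and 1 higher, where 13.9% of all probe sets were called lower and 12.4% higher. These block shares count probe sets, whereas the lists count genes. Frrs1l, a factor for assembly of AMPA receptors in the endoplasmic reticulum, fell to 209 ± 25.7 at 31.5 °C, against 382 ± 43.7 at 37 °C (-0.87 ± 0.12, adjusted p = 0.00388), without overlap. Prrt1, also called SynDIG4, fell by 0.58 on the log2 scale (adjusted p = 0.0475, up to 0.145 over the alternatives). Cacng4, the TARP gene typical of the oligodendrocyte lineage, was level at 884 ± 95.4 and 795 ± 71.0 (0.15 ± 0.11, adjusted p = 0.403). The median of the 13 was -0.29.

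Among scaffold and trafficking genes 2 of 20 tested fell and 0 rose, where 6.83% of all genes tested were called lower and 6.68% higher. By an unadjusted p of 0.05, 6 were lower and 2 higher, for which no share over all genes is given here. With the block 3 were lower and 1 higher, where 13.9% of all probe sets were called lower and 12.4% higher. Dlg1, which encodes the GluA1-binding scaffold SAP97, fell to 545 ± 47.6 at 31.5 °C, against 739 ± 94.2 at 37 °C (-0.43 ± 0.12, adjusted p = 0.0411, up to 0.302). Lin7a, a partner of such scaffolds, fell by 0.81 (adjusted p = 0.0489, up to 0.144). The median of these genes was 0.03. Of 9 tested receptor kinase and editing genes 1 was called lower and 0 higher, beside the same shares of all genes. By an unadjusted p of 0.05, 3 were higher and 3 lower, again with no share over all genes given. With the block 3 were lower and 0 higher, beside the same block shares of all probe sets. The called gene was Adarb2, an inactive member of the editing enzyme family. It fell to 164 ± 49.0, against 309 ± 53.5 at 37 °C (-0.95 ± 0.21, adjusted p = 0.0214, up to 0.0733). Adarb1, the enzyme that edits the Gria2 transcript, was at 54.1 ± 3.78 and 54.6 ± 7.17 (-0.0076 ± 0.11, adjusted p = 0.976).

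Of 4 tested metabotropic glutamate receptors, which signal through G proteins, 2 were called lower and 0 higher, with a median of -0.75. Of all genes tested, 6.83% were called lower and 6.68% higher. By an unadjusted p of 0.05, 3 of the receptors were lower and 0 higher, for which no share over all genes is given here. With the block 3 were lower, where 13.9% of all probe sets were called lower and 12.4% higher. Grm5, the receptor of glial progenitors that raises intracellular calcium, fell to 106 ± 15.8 at 31.5 °C, against 216 ± 35.0 at 37 °C (-1.02 ± 0.15, adjusted p = 0.00495), without overlap. Grm3 (-0.55, adjusted p = 0.0879, and 0.0354 with the block) and Grm4 (-0.44, adjusted p = 0.187) did not pass. Grm7 fell to 50.1 ± 13.1, against 95.9 ± 22.6 at 37 °C (-0.95 ± 0.24, adjusted p = 0.0348, up to 0.112). Of 8 tested genes of glutamate uptake, release and metabolism, 1 rose and 1 fell, beside the same shares of all genes. By an unadjusted p of 0.05, 4 were higher and 1 lower, again with no share over all genes given. With the block 3 were higher and 2 lower, beside the same block shares of all probe sets. Slc7a11, the cystine/glutamate exchanger, rose to 349 ± 63.2, against 160 ± 31.2 at 37 °C (1.13 ± 0.19, adjusted p = 0.00719). Slc1a1, a glutamate uptake carrier, fell by 0.57 (adjusted p = 0.0229, up to 0.0868).

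**Figure D4:**
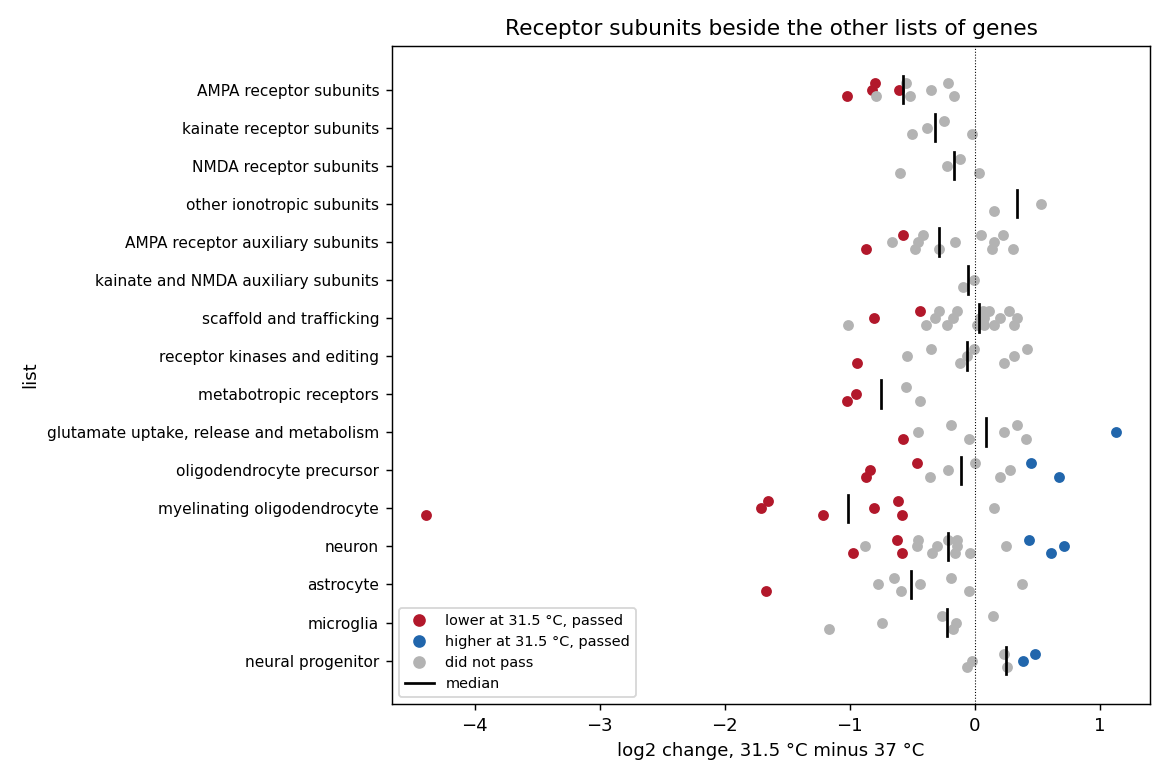
Log2 change (31.5 °C minus 37 °C) of each tested probe set of the AMPA, kainate and NMDA subunits, and of each tested gene (at its probe set of highest mean) of 13 lists of related genes and cell type markers. Red points were called lower, blue points higher and grey points did not pass, and black bars are medians. The AMPA median is -0.58. Other list medians run from -1.01 for myelinating oligodendrocytes, -0.75 for metabotropic receptors and -0.51 for astrocytes up to 0.34 for the other ionotropic subunits. The last rests on 2 tested genes, Grik4 (0.15) and Grid1 (0.53), of which 0 were called. A Grid1 probe set of lower mean, 1441499_at, is not drawn and was called lower in the unpaired fit (-0.62, adjusted p = 0.0234).

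Markers of the cells that a mixed culture can hold were set beside these results. For all marker counts below, the share of all genes tested was 6.83% called lower and 6.68% higher. With the block, 13.9% of all probe sets were called lower and 12.4% higher. A summed signal adds probe sets whose levels are not comparable, so it mostly follows the brightest markers of a list. The labelled cell type was present by its markers: Pdgfra, the precursor receptor, was at 2469 ± 365 and 1798 ± 168 (0.45 ± 0.12, adjusted p = 0.0444, up to 0.109), and Olig2 at 1805 ± 203 and 2097 ± 271 (adjusted p = 0.305). Of 10 precursor markers tested, 3 fell and 2 rose, with a median of -0.11 and a summed signal of 15720 to 18270 at 31.5 °C and 15930 to 19670 at 37 °C. Gpr17 fell by 0.84 (adjusted p = 0.00217) and Matn4 by 0.87 (adjusted p = 0.00728), while Vcan fell by 0.46 (adjusted p = 0.0358, up to 0.190). Of 8 tested markers of myelinating oligodendrocytes 7 fell and 0 rose (median -1.01, summed signal 9921 to 14060 against 19510 to 24410). Mobp, of compact myelin, was at 10.0 ± 7.19 at 31.5 °C, above background on 1 array, against 304 ± 211 at 37 °C (adjusted p = 0.00063). Cldn11, of myelin tight junctions, fell by 1.71 on the log2 scale (adjusted p = 0.00277), Mag, an adhesion molecule of myelin, fell by 1.65 (adjusted p = 0.00414) and Mbp, of the myelin sheath, fell by 0.80 (adjusted p = 0.00905).

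Markers of neurons, which also express AMPA receptors, moved both ways. Of 17 tested, 3 fell and 3 rose (median -0.21, summed signal 16540 to 20500 at 31.5 °C and 16020 to 21980 at 37 °C; 6 lower and 3 higher with the block). Syn1, of synaptic vesicles, fell to 214 ± 11.8, against 423 ± 66.8 at 37 °C (adjusted p = 0.00272), while the interneuron factor gene Dlx1 rose by 0.61 (adjusted p = 0.0102) and Nefm by 0.71 (adjusted p = 0.0217, up to 0.0645). Tubb3 was at 2179 ± 218 and 2539 ± 362 (adjusted p = 0.305), and Rbfox3 at 220 ± 47.2 and 307 ± 75.7 (-0.46 ± 0.22, adjusted p = 0.203, and 0.0250 with the block). Of the vesicular glutamate transporters of excitatory neurons, Slc17a6 was above background on all 8 arrays, at 75.1 ± 28.8 and 101 ± 32.1 (-0.46 ± 0.32, adjusted p = 0.381, and 0.0152 with the block), and Slc17a7 on 0 arrays at 31.5 °C and 2 at 37 °C. Tbr1, a factor of cortical excitatory neurons, fell to 36.7 ± 3.32, against 56.0 ± 11.9 at 37 °C (-0.59 ± 0.16, adjusted p = 0.0414, up to 0.177).

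Of 8 tested astrocyte markers, whose median was -0.51, S100b alone was called, which fell by 1.67 on the log2 scale (adjusted p = 0.000286), 0 rose, 5 were lower with the block, and the summed signal was 6886 to 12420 at 31.5 °C and 9501 to 17180 at 37 °C. Gfap was at 2245 ± 968 and 3518 ± 1480 (adjusted p = 0.280, and 0.00479 with the block). Of 6 microglia markers 0 were called in limma, Aif1 among them (adjusted p = 0.665), and 2 were lower with the block. By an unadjusted p of 0.05, 1 was lower and 0 higher, with no share over all genes given here. Their summed signal was 2404 to 4972 at 31.5 °C and 2932 to 6968 at 37 °C. Of 6 progenitor markers Sox1 and Msi1 rose, by 0.48 (adjusted p = 0.0224, up to 0.0630) and 0.39 (adjusted p = 0.0378, up to 0.0944), and 0 fell (summed signal 5516 to 5964 and 5336 to 5752). None of the defining markers Pdgfra, Olig2, Mbp, Tubb3, Rbfox3, Gfap and Aif1 was at background. The part of these cell types in the receptor values was not tested.

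The genes most like Gria2 over the 8 arrays were found for its probe set 1434146_at, which had the smallest p of the family. Likeness was the root mean square difference of log2 signals, each centred on its own mean, over 20481 named probe sets past the filter. The closest were Rad52 (0.0941), Mrpl35 (0.0956) and Plcg2 (0.0999), at probe sets 1426296_at, 1440989_at and 1426926_at. Rad52, of DNA repair, was at 49.6 ± 6.16 at 31.5 °C and 92.4 ± 8.84 at 37 °C. Plcg2, a phospholipase gene of immune cells, was at 222 ± 19.2 and 419 ± 32.2, and Mrpl35, of the mitochondrial ribosome, at 58.7 ± 4.44 and 121 ± 14.5. Each of the 3 had its cold arrays all below its warm arrays, which the search for a like pattern selects for.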

How the data were processed

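The authors deposited probe set intensity values on a linear scale, made with MAS5 per the submitters' processing notes. The version, the scaling target and the detection calls were not given in the sources used here. Per the labels, total RNA was labelled with biotin and hybridised to 1 array per sample.

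Of 45101 probe sets, 64 controls were left out, and 34945 of the others carried 1 symbol, 932 several and 9160 none, in the platform annotation. Those with several symbols name no gene here. Each array was scaled by its 2% trimmed mean (the deposited means differed by a factor of 1.89), signals below 9.80, the 25th percentile, were set to it, and log2 was taken. Probe sets at or above the median of the mean log2 values (36.3 as a signal) were fitted with limma 3.58.1 in R 4.3.3. Temperature was the only term, and the tests were two-sided. Benjamini-Hochberg adjustment ran over all 22519, with a threshold of 0.05. Gene lists were counted at each gene's probe set of highest mean. The shares with the replicate block beside them were taken over all probe sets, not over genes.

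Arrays of the same replicate number correlated in their deviations from the group means at 0.384 to 0.580, and those of different numbers at no more than 0.00919, so the numbers pair the arrays. The pairing comes from the replicate numbers of the sample titles. Genes named were all members, up to 3 called genes of smallest p in each of 13 lists, 7 defining markers, the other ionotropic subunits, and the 3 genes of most like pattern. Neto1, Neto2, Cacng4, Adarb1, Grm3, Grm4, Slc17a6, Slc17a7, Tbr1 and the within-gene probe set differences were picked after their values were seen. Members, lists and tests were chosen with earlier results of these data known. The unpaired fit was also run on simulated data, drawn independently for each array and so without the pairing seen here. The 4 arrays per temperature limit the precision. Alternatives were quantile and median scaling, no floor, a higher floor, no filter, a stricter filter, 1 probe set per gene, leaving out _x_at and _s_at probe sets, array weights, the replicate block, and leaving out each array or pair. Figures were drawn with Python 3.11.15 and matplotlib 3.10.9.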

Additional observations from a re-analysis of the deposited data

Results flagged for a closer look

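Among 54 groups of 4 arrays examined for a single array far from the others (each receptor probe set and each subunit difference at each temperature), 2 stood out, where chance gives about 1 in 20. Grik3 probe set 1427709_at had 14.6 in replicate 2 at 31.5 °C and at most 7.42 in the other 3, which lie under the floor, so that the gap made up the whole range (ratio 1.0). All its arrays were below background. Grin2b probe set 1442370_at had 18.5 in replicate 3 at 37 °C, against 39.9 to 42.8 in the other 3 (ratio of gap to range 0.917). That array was the lowest at 37 °C for 10 of the 22 receptor probe sets, among them all 4 called lower, which read 3 genes. How often it was the lowest over all probe sets is not given here.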

How the results depend on the processing

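The calls of 1434146_at of Gria2 (adjusted p up to 0.0146), 1435722_at of Gria4 (up to 0.0293) and 1448972_at of Gria1 (up to 0.0433) held in every alternative that included them, out of 22. The number of receptor probe sets called lower was 4, and 9 with the replicate block, 7 with array weights, 7 with the block without pair 2 or without pair 4, and 3 to 6 with 1 array left out; AMPA probe sets called lower were 4, and 7 with the block and 3 to 5 with 1 array left out. No receptor probe set was called higher in any of the 22. Their median change of -0.45 was -0.38 with quantile normalization, -0.36 with median scaling, -0.34 with the floor at the 50th percentile, -0.61 with the filter at the 70th percentile (9 probe sets tested), -0.39 with 1 probe set per gene (9 tested), -0.50 to -0.35 with 1 array left out, and -0.37 without pair 1 and -0.38 without pair 4 under the block. Over all probe sets 2977 were called, and 1630 with median scaling, 1775 with 1 probe set per gene, 5919 with the replicate block and 1575 to 2727 with 1 array left out; among the calls 51.1% were lower, and 38.6% with median scaling. The sign of 3 small values turned, none of which passed: Grik5 was 0.066 with median scaling, -0.083 to 0.017 with 1 array left out, 0.0205 without pair 2 and 0.0079 without pair 3 under the block, Grin3a 1438866_at was -0.113 to 0.146 with 1 array left out and -0.035 without pair 1 under the block, and Grin3a 1458378_at was -0.255 to 0.087 with 1 array left out and 0.018 without pair 4 under the block. The difference Gria2 minus Gria4 turned to -0.11 when each gene was the mean of its tested probe sets, since other probe sets then enter. Among the list genes, single arrays ended calls: any array but replicate 4 at 37 °C for Dlg1, any but replicate 3 at 37 °C for Prrt1 and Lin7a, any but replicate 4 at 31.5 °C and replicate 3 at 37 °C for Grm7, replicates 2 and 3 at 31.5 °C and 2 and 4 at 37 °C for Slc1a1, replicates 1 and 3 at 31.5 °C and 2 and 4 at 37 °C for Adarb2, replicate 3 at 31.5 °C and 4 at 37 °C for Grid1 1441499_at, any but replicate 3 at 37 °C for Tbr1, and at least 2 arrays each for Pdgfra, Vcan, Nefm, Sox1 and Msi1. The replicate block changed no call of a named gene beyond those given with it in the text. Of 904 values of the list and likeness genes 767 kept direction and side of the threshold and 15 turned sign, all of Adarb1 and Neto2, which never passed. Adarb1 was 0.0518 with quantile normalization, 0.0815 with median scaling, 0.0334 with array weights, -0.0685 to 0.0771 with 1 array left out, and 0.00482 without pair 2 and 0.0906 without pair 4 under the block. Neto2 was 0.0814 with median scaling, -0.0329 to 0.0151 with 1 array left out, and 0.00965, 0.00214 and 0.00722 without pairs 2, 3 and 4 under the block. Where no value is given for a cause, the cause was not tested. Signals near background limit Grin2b and the remaining ionotropic subunits, whose probe sets mostly were not tested.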
